A study of Mus musculus with 24 samples.

Results

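Melanin synthesis and pigment cell genes were examined in the mouse retina after hypoxic preconditioning. The 8 genes were Dct, Tyrp1, Tyr, Pmel, Mlana, Slc45a2, Oca2 and Mitf, matched by symbol in the array annotation. They were carried by 14 of the 45037 probe sets and made up 8 of the 18193 annotated genes. A probe set combines several short probes, and each of these 14 is annotated to 1 gene.

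BALB/c mice were kept in air with 6% oxygen for 6 h and were then returned to room air in darkness. Hypoxic retinas were isolated after 0, 2, 4 and 16 h of reoxygenation, and retinas of normoxic control mice were taken in parallel. RNA of 1 pool of 3 retinas from 3 different mice went onto each array, and each of the 8 groups had 3 pools. BALB/c is an inbred albino strain with inactive tyrosinase, so its eyes hold no melanin although the pigment cells are present. All mice, hypoxic and normoxic, were homozygous for the light-sensitive leucine variant of Rpe65, and were adult, with no exact age given in the sources used here.

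Values are log2 signals made with RMA, which removes background, makes the arrays comparable and summarises the probes. The array medians lay between 5.79 and 5.84. Tests at a time point were limited to probe sets whose hypoxic or normoxic mean was at least 6.69, the valley between the dim and the bright peak in the distribution of signals, and a change below this threshold is a difference of dim signals. Hypoxia was compared with normoxia in a single limma model of the 24 arrays, with p-values adjusted by Benjamini-Hochberg over all probe sets tested, and a gene was called changed at an adjusted p under 0.05. A gene with several probe sets is represented by its brightest one. The retinas were measured as bulk tissue, in which fewer cells of a type and less RNA per cell cannot be told apart.

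Melanin is made in melanosomes, organelles of melanocytes and of the retinal pigment epithelium (RPE), the cell layer behind the photoreceptors. Tyrosinase (Tyr) oxidises tyrosine, dopachrome tautomerase (Dct) and tyrosinase-related protein 1 (Tyrp1) act on later intermediates, and all 3 enzymes belong to 1 family. Pmel forms the fibrils on which melanin is laid down, Mlana works with it in the maturing organelle, and Slc45a2 and Oca2 are transporters that set the pH of the melanosome. Mitf is the transcription factor that acts above these genes and binds the M-box in the promoters of the tyrosinase family. In the mouse embryo Mitf keeps the RPE from becoming neural retina.

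In the mouse assembly GRCm38.p6 the members lie on 7 chromosomes. Tyrp1 is at chr4:80834123-80851736, Mitf at chr6:97807002-98021360, Oca2 at chr7:56239593-56536518 and Tyr at chr7:87424771-87493512. Pmel is at chr10:128695888-128720238, Dct at chr14:118012790-118052246, Slc45a2 at chr15:11000721-11029233 and Mlana at chr19:29697541-29708447. Oca2 and Tyr are both on chromosome 7 without being neighbours.

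The M-box core TCATGTGCT was searched on both strands in the 250 bases before each start site of a set of mouse promoters for GRCm38.p6. The start sites of Dct and Tyr border the gene spans given above. Those of Tyrp1, Oca2 and Mitf lie inside the spans, and so does the Tyrp1 match below. It stood once in each of the 3 windows of the tyrosinase family and in none of the windows of Oca2 (1 window) and Mitf (3 windows). Pmel, Mlana and Slc45a2 had no entry in this set, so they were not searched for any motif. Of 32851 such mouse promoters, 110 (0.335%) held it. The match began 151 bases before the start site of Dct (chr14:118052379-118052407, minus strand), 22 bases before that of Tyr (chr7:87493516-87493544, minus strand) and 47 bases before that of Tyrp1 (chr4:80834156-80834184, plus strand). The sites are shown because these genes share the motif and differed in their signal, with the core in capitals and 10 bases on each side.
Dct site: gcacttagggTCATGTGCTaacaaagagg
Tyr site: aaaaagttagTCATGTGCTttgcagaaga
Tyrp1 site: ggggagggagTCATGTGCTgcctagtagt

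The whole windows of Dct (chr14:118052247-118052496) and Tyr (chr7:87493513-87493762) are printed 5′ to 3′ on the minus strand, up to the base before the start site, with the M-box core again in capitals. They belong to the member with the largest change and to a relative with the same core whose signal stayed under the threshold.
Dct upstream: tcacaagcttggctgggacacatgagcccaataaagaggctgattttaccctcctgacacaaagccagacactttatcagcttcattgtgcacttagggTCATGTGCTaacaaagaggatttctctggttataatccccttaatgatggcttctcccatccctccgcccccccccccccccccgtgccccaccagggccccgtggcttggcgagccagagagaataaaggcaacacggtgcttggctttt
Tyr upstream: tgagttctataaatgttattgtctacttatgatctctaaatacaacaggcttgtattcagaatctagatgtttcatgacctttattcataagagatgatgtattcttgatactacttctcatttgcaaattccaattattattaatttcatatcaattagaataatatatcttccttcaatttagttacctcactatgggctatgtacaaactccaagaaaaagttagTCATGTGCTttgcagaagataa

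The core contains CATGTG, the 6 bases of an E-box, which by itself was found in 4025 (12.3%) of all promoters. The Dct window held a second CATGTG on the opposite strand, and the Oca2 window held 1 on the opposite strand. The letters ACGTG, the core of the hypoxia response element that HIF-1 binds, stood in none of the windows of Dct, Tyr and Tyrp1. They stood in that of Oca2 and in 1 of the 3 of Mitf, against 5444 (16.6%) of all promoters. A match of letters is not a measured binding site.

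**Figure D1:**
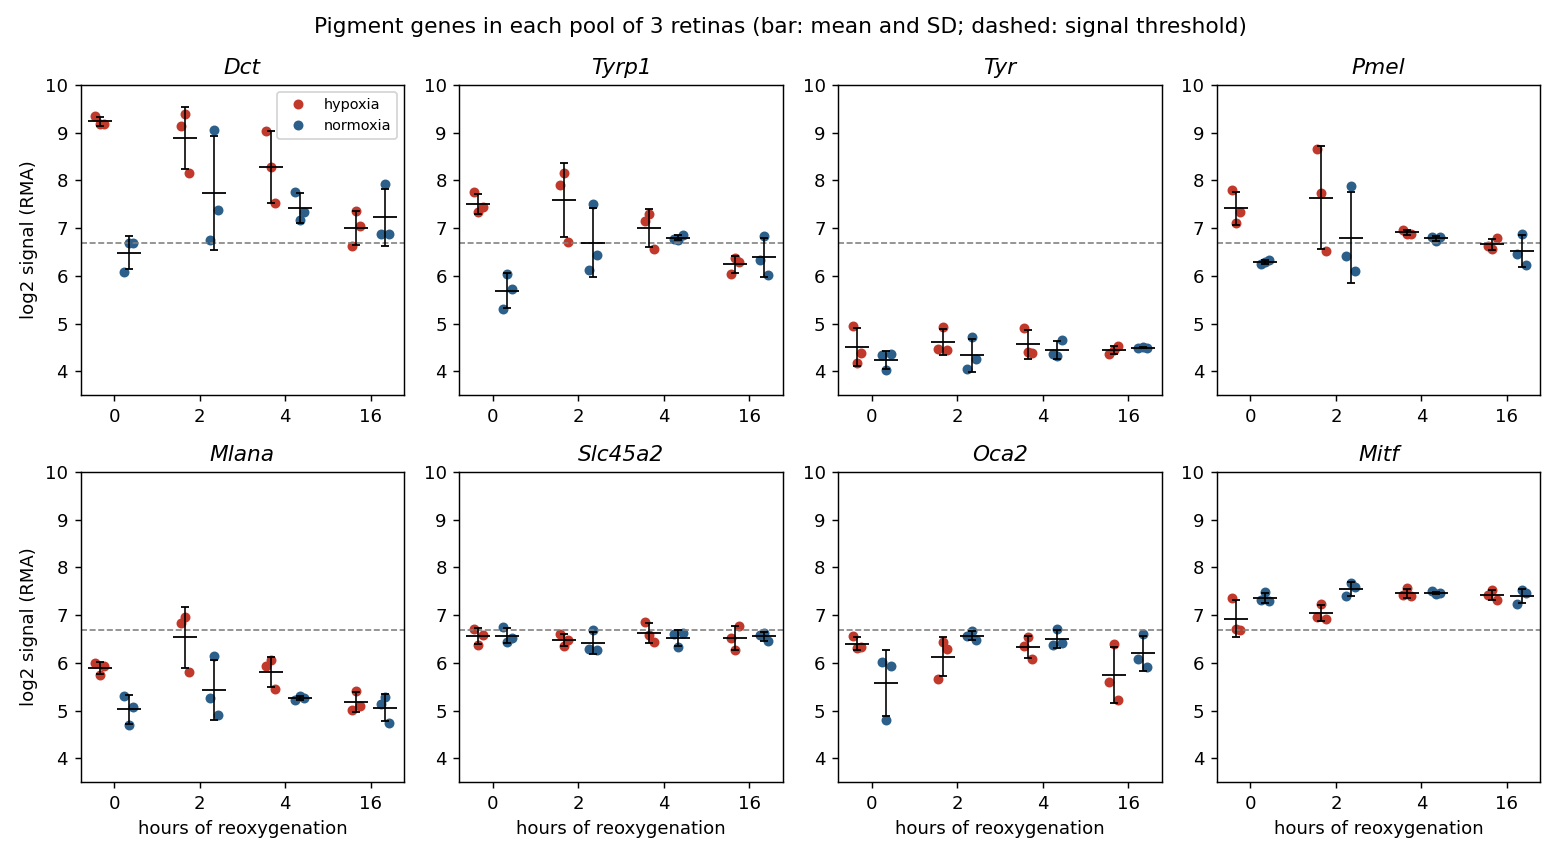
Log2 signal (RMA) of the brightest probe set of each gene in every pool, by hours of reoxygenation, with hypoxic pools in red to the left of normoxic pools in blue; bars give mean and SD over 3 pools, and the dashed line marks the signal threshold of 6.69. Dct, Tyrp1 and Pmel separate the treatments at 0 h, 1 normoxic pool at 2 h lies among the hypoxic ones, and Tyr stays near 4.42 throughout.

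Immediately after hypoxia 4 of the 8 genes passed the signal filter, and all 4 were called. Dct, Tyrp1 and Pmel rose, and Mitf fell. Over the whole array 15.2% of the 18799 probe sets tested at 0 h were called higher and 17.2% lower, 32.4% in all, and 42.1% had an unadjusted p under 0.05. The median log2 change was 1.47 over the 4 members tested and -0.0084 over all probe sets tested. The filter admitted Dct, Tyrp1 and Pmel through the hypoxic group alone, since their normoxic means at 0 h lay under the threshold. Passing in this way favours a rise, so the share called and the median change describe only those that passed.

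Dct showed the largest change of the members. Its log2 signals were 9.34, 9.17 and 9.19 in hypoxic pools at 0 h, against 6.08, 6.68 and 6.69 in normoxic pools. All hypoxic pools lay above all normoxic pools, and the gap between the groups was wider than the range within either. The log2 change was 2.75 (SE 0.44; 6.73-fold; limma, adjusted p = 6.63e-05), and it lay between 2.55 and 2.85 when each array was left out in turn.

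At 2 h Dct had 9.13, 9.39 and 8.15 in hypoxic pools and 6.75, 9.07 and 7.39 in normoxic pools. The groups overlapped through normoxic replicate 2, whose value was the highest of all 12 normoxic pools and lay above hypoxic replicate 3. The log2 change of 1.15 (SE 0.44) did not pass the adjusted test of limma (adjusted p = 0.0803). Without normoxic replicate 2 it was 1.82 (adjusted p = 0.00543), and without hypoxic replicate 3 it was 1.52 (adjusted p = 0.0428), while without normoxic replicate 1 it was 0.66 (adjusted p = 0.363). Over all arrays left out in turn the adjusted p ran from 0.00543 to 0.363.

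At 4 h Dct had 9.03, 8.28 and 7.53 in hypoxic pools and 7.77, 7.17 and 7.33 in normoxic pools, and hypoxic replicate 3 lay inside the normoxic range. The log2 change was 0.86 (SE 0.44; limma, adjusted p = 0.359). At 16 h it had 6.62, 7.35 and 7.04 in hypoxic pools and 6.87, 7.92 and 6.88 in normoxic pools, with a log2 change of -0.22 (SE 0.44; limma, adjusted p = 0.965). Compared between time points, the hypoxia effect on Dct was larger at 0 h than at 16 h by 2.97 on the log2 scale (SE 0.63; limma, adjusted p = 0.00202) and larger than at 4 h by 1.89 (SE 0.63; limma, adjusted p = 0.0418), and the difference from 2 h was 1.60 (SE 0.63; limma, adjusted p = 0.128). The difference between 0 and 4 h was lost for Dct without any 1 of the arrays at 0 h and without several at 4 h (adjusted p up to 0.126). Of the probe sets tested for these differences between time points, 20.6%, 16.9% and 8.21% were called, and 8.74%, 6.37% and 2.8% were called with the larger value at 0 h.

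Tyrp1 followed the same order of time points with smaller changes. At 0 h its log2 signals were 7.75, 7.34 and 7.43 in hypoxic pools and 5.30, 6.03 and 5.73 in normoxic pools. The groups did not overlap, and all normoxic pools were under the threshold. Tyrp1 changed by 1.82 (SE 0.33; 3.53-fold; limma, adjusted p = 0.000201). The other 2 probe sets of Tyrp1 were called too, with log2 changes of 1.89 (adjusted p = 1e-04) and 1.34 (adjusted p = 0.000533), and the 3 probe sets correlated at 0.96 with each other over the 24 arrays.

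At 2 h Tyrp1 had 7.91, 8.17 and 6.71 in hypoxic pools and 6.13, 7.51 and 6.43 in normoxic pools. Normoxic replicate 2 was again the highest normoxic pool, and hypoxic replicate 3 the lowest hypoxic one. The difference was 0.90 (SE 0.33; limma, adjusted p = 0.0625), and it was 1.31 (adjusted p = 0.0104) without normoxic replicate 2 and 1.34 (adjusted p = 0.00794) without hypoxic replicate 3. Over all arrays left out in turn it ran from 0.62 to 1.34, with an adjusted p up to 0.259. At 4 h Tyrp1 had 7.16, 7.29 and 6.56 in hypoxic pools and 6.77, 6.76 and 6.86 in normoxic pools, with a log2 change of 0.20 (limma, adjusted p = 0.824), and at 16 h both means lay under the threshold. The effect at 0 h was larger than at 4 h by 1.62 (SE 0.46; limma, adjusted p = 0.0186) and than at 16 h by 1.97 (SE 0.46; limma, adjusted p = 0.00454). The difference from 4 h was lost for Tyrp1 without hypoxia 0 h replicate 1 or without hypoxia 4 h replicate 3.

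Tyr did not reach the threshold on any array with any of its 3 probe sets. Over all 24 pools the brightest of them ran from 4.02 to 4.96. At 0 h it averaged 4.51 ± 0.40 in hypoxic and 4.24 ± 0.19 in normoxic retinas (SD, n = 3 each), and the groups overlapped. The 3 probe sets correlated at 0.10 to 0.42 over the arrays, so no level of Tyr was resolved and no change was tested.

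Pmel, the fibril protein of the melanosome, had 7.80, 7.11 and 7.33 in hypoxic pools and 6.26, 6.29 and 6.33 in normoxic pools at 0 h. The groups did not overlap, and the normoxic pools were close together under the threshold. Pmel changed by 1.12 (SE 0.38; 2.18-fold; limma, adjusted p = 0.0283). The call was lost when any array at 0 h other than hypoxic replicate 2 was left out, with adjusted p-values of 0.0563 to 0.117 and log2 changes of 0.93 to 1.16. It was also lost with no signal filter (adjusted p = 0.0509) and with a trended and robust spread (adjusted p = 0.0544).

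At 2 h Pmel had 8.66, 7.73 and 6.52 in hypoxic pools and 6.42, 7.89 and 6.10 in normoxic pools. Its spread was the widest of any member in hypoxic retinas, with an SD of 1.08, and the groups overlapped. The log2 change was 0.83 (SE 0.38; limma, adjusted p = 0.144), and without single arrays it ran from 0.32 to 1.39 (adjusted p between 0.0125 and 0.635). It was 1.37 (adjusted p = 0.0136) without normoxic replicate 2 and 1.39 without hypoxic replicate 3, but 0.32 without hypoxic replicate 1 and 0.48 without normoxic replicate 3. At 4 h the hypoxic pools ran from 6.88 to 6.97 and the normoxic pools from 6.72 to 6.82, which did not overlap, and the change of 0.13 was not called (limma, adjusted p = 0.919).

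Mlana, a melanosome membrane protein, did not reach the threshold in the mean of any group and was therefore not tested. At 0 h it had 6.00, 5.74 and 5.93 in hypoxic pools and 5.30, 4.71 and 5.07 in normoxic pools, with no overlap and a difference of 0.86. At 2 h it had 6.84, 6.97 and 5.81 in hypoxic pools and 5.26, 6.14 and 4.92 in normoxic pools, with a difference of 1.10. The 2 highest hypoxic pools at 2 h were the only values of Mlana above the threshold. With no signal filter, limma gave an adjusted p of 0.0334 at 0 h and 0.0167 at 2 h.

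The transporters gave no called change. Slc45a2 ran from 6.26 to 6.86 over all pools, with log2 differences between -0.039 and 0.10 at the 4 time points. Oca2 averaged 6.40 ± 0.14 in hypoxic and 5.58 ± 0.68 in normoxic retinas at 0 h (SD, n = 3 each), a difference of 0.82 that was 0.43 without normoxic replicate 2, whose value was 4.79. At the later time points Oca2 was lower in hypoxic retinas by mean, with differences of -0.44, -0.17 and -0.46 at 2, 4 and 16 h, and at 2 h its groups did not overlap. Neither gene reached the threshold in the mean of any group.

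Mitf, the regulator of the others, was called lower at 0 h, opposite to the called rises of Dct, Tyrp1 and Pmel. At 0 h it had 7.37, 6.72 and 6.69 in hypoxic pools and 7.31, 7.49 and 7.29 in normoxic pools. Hypoxic replicates 2 and 3 lay below all normoxic pools, and replicate 1 lay among them. The log2 change was -0.44 (SE 0.14; limma, adjusted p = 0.0181), and the call was lost without hypoxic replicate 2 (adjusted p = 0.102), hypoxic replicate 3 (adjusted p = 0.119) or normoxic replicate 2 (adjusted p = 0.074).

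At 2 h Mitf had 6.97, 7.23 and 6.92 in hypoxic pools and 7.39, 7.68 and 7.58 in normoxic pools. The groups did not overlap, and the log2 change was -0.51 (SE 0.14; limma, adjusted p = 0.0142), which missed the threshold without hypoxic replicate 1, hypoxic replicate 3 or normoxic replicate 2 (adjusted p between 0.0608 and 0.0632). At 4 h the means were 7.46 ± 0.091 in hypoxic and 7.47 ± 0.029 in normoxic retinas, and at 16 h 7.42 ± 0.11 in hypoxic and 7.41 ± 0.15 in normoxic retinas (SD, n = 3 each). The second probe set of Mitf stayed between 3.35 and 3.98 and was not tested. It correlated at 0.16 with the brighter one over the arrays.

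**Figure D2:**
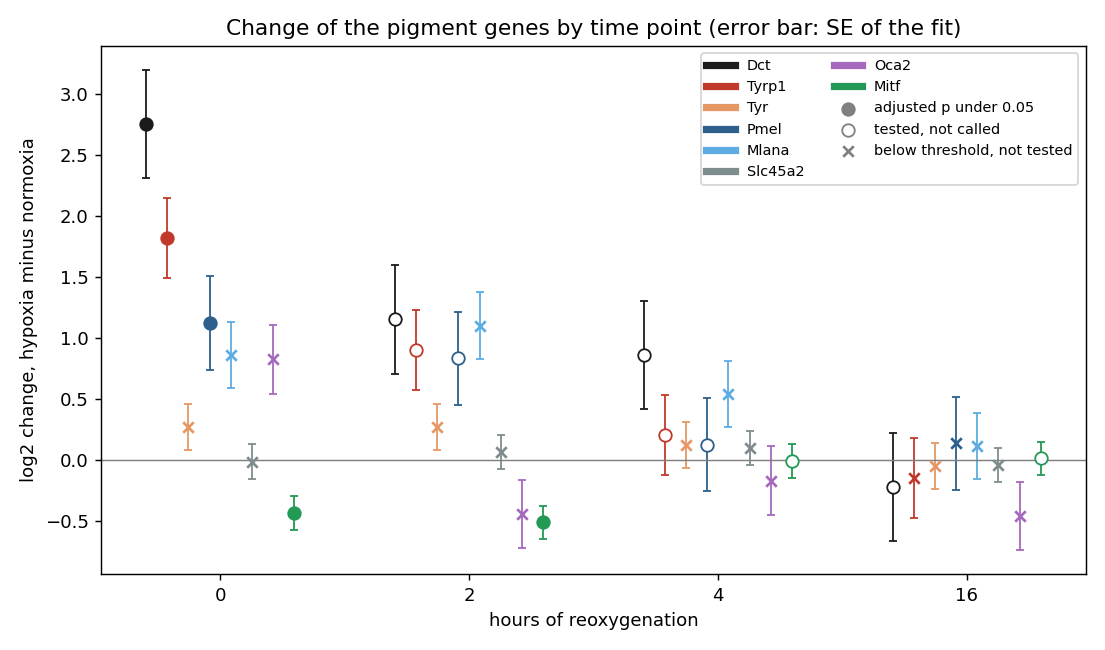
Log2 change (hypoxia minus normoxia) of each gene by hours of reoxygenation, with the SE of the fit as error bar. Filled circles have an adjusted p under 0.05, open circles were tested and not called, and crosses lay below the signal threshold in both groups; the changes span -0.44 to 2.75 at 0 h and -0.46 to 0.14 at 16 h.

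Over the time course, 5 of the 8 genes had all hypoxic pools above all normoxic pools at 0 h (Dct, Tyrp1, Pmel, Mlana and Oca2), where 21.5% of all probe sets tested separated in this way. At 2 h no member did, where 19.8% did, and 2 members, Oca2 and Mitf, lay wholly below, where 14.9% did. At 4 h Pmel and Mlana lay wholly above (17.1% of all) and no member below (10.2% of all), and at 16 h no member lay below (4.18% of all) or above (6.88% of all). Mlana and Oca2 were not tested at any time point, while these shares cover tested probe sets only. Among tested members, Dct, Tyrp1 and Pmel lay wholly above at 0 h, Mitf wholly below at 2 h and Pmel wholly above at 4 h. At 2 h 4 members were tested, and of these 0 were called higher and 1 lower, where limma called 9.19% of all probe sets tested higher and 7.38% lower. The 4 members all had an unadjusted p under 0.05 at 2 h, as had 30.2% of all probe sets tested, and the methods' t-test called 0 of them. At 4 h 0 of 4 members tested and at 16 h 0 of 2 were called by limma, none had an unadjusted p under 0.05 (15.6% of all probe sets tested at 4 h), and the methods' t-test called 0. Of all probe sets tested, limma called 1.43% at 4 h and 0% at 16 h, where 6.37% had an unadjusted p under 0.05.

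The normoxic groups also differed among themselves by mean. Dct was lowest at 0 h, with 6.48 ± 0.35, and had 7.74 ± 1.19, 7.42 ± 0.31 and 7.23 ± 0.60 at 2, 4 and 16 h (SD, n = 3 each). Tyrp1 had 5.69 ± 0.37 at 0 h and 6.69 ± 0.73, 6.80 ± 0.055 and 6.39 ± 0.41 at the later times. The largest difference between normoxic means was 1.25 for Dct (limma F test, adjusted p = 0.271) and 1.11 for Tyrp1 (limma F test, adjusted p = 0.116). No member was called in this test, where 3.54% of all probe sets were, and Tyrp1 was the only member tested with an unadjusted p under 0.05.

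Markers of the RPE moved in the same direction as Dct and Tyrp1 at 0 h. Of 16 marker genes, with the members left out, 9 were tested at 0 h, 7 rose and 0 fell, and their median log2 change was 0.89. Of all probe sets tested, 15.2% rose and 17.2% fell. Rpe65 passed the filter through the hypoxic group alone, so the count and the median describe only markers that passed. Of these markers Rgr, Ttr, Rdh5 and Lrat were already among the most upregulated genes in the study's own list from these arrays. The count is therefore not independent of that list. Ttr, a carrier of thyroxine and of retinol-binding protein, was higher by 3.75 (limma, adjusted p = 8.45e-06), and Rgr, a retinal G protein-coupled opsin, by 3.57 (limma, adjusted p = 1.14e-06). Rpe65, the isomerase of the visual cycle, averaged 9.26 in hypoxic and 5.78 in normoxic retinas, a change of 3.48 (limma, adjusted p = 2.38e-05), and Rdh5, a retinol dehydrogenase, changed by 2.60 (limma, adjusted p = 6.43e-06).

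The mean log2 signal of the 16 RPE markers per pool was 7.99 in each of the hypoxic pools at 0 h and 6.56 to 6.75 in the normoxic ones. At 2 h it was 7.08 to 7.67 in hypoxic and 6.67 to 7.19 in normoxic pools, at 4 h 6.89 to 7.40 in hypoxic and 6.56 to 7.11 in normoxic pools, and at 16 h 6.58 to 6.98 in hypoxic and 6.83 to 7.12 in normoxic pools. After 0 h the groups overlapped at every time point, and limma called 0 of 8 markers tested at 2, 4 and 16 h, with an unadjusted p under 0.05 in 4, 2 and 2. Over all probe sets tested, 30.2%, 15.6% and 6.37% had an unadjusted p under 0.05 at 2, 4 and 16 h. At 2 h the normoxic pool with the highest marker mean and the hypoxic pool with the lowest were the same replicates 2 and 3 that stood out for Dct, Tyrp1 and Mlana. The part of RPE cells or of RPE RNA in the changes of the pigment genes was not tested. Of the 16 markers, 7 did not reach the threshold in any group.

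Markers of melanocytes lay under the threshold. All 5 measured (Sox10, Kit, Mc1r, Gpr143 and Mlph), the genes of a neural crest regulator, a pair of receptors, a melanosome receptor and a transport adaptor, did not reach it in the mean of any group, and their average signal ran from 5.13 to 5.25 in hypoxic and from 5.11 to 5.30 in normoxic pools at 0 h. All 5 are also on the lists of melanosome genes or of pigment cell signals that follow.

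The lens markers were higher by median at 0 h, by 1.58, and lower by median at the later time points, without a call. Their mean over 14 genes was 10.8 to 12.9 in hypoxic and 7.80 to 11.9 in normoxic pools at 0 h, with 0 called by limma at any time point and an unadjusted p under 0.05 in 11 of 14 at 0 h and in 0 later. Of all probe sets tested, 42.1% had an unadjusted p under 0.05 at 0 h. The low value of 7.80 came from normoxic replicate 2 at 0 h, an array that stood apart from the others, and the Dct change at 0 h was 2.85 without it. At 2 h, where Dct differed most between normoxic pools, the lens mean was 12.2 to 12.6 in hypoxic and 12.5 to 12.7 in normoxic pools. Its most abundant members, the crystallins Cryaa and Cryba1, had changes of 1.22 and 1.32 at 0 h (limma, adjusted p = 0.0928 and 0.093).

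Of the other cell type lists, 1 of 4 fibroblast markers tested rose at 0 h (Pdgfra, by 0.63; limma, adjusted p = 0.0262), and 0 of 8 rod and 0 of 5 Mueller glia markers were called, with an unadjusted p under 0.05 in 1 of each. At 2 h 1 rod marker fell, and none was called later. Of all probe sets tested, limma called 32.4%, 16.6% and 1.43% at 0, 2 and 4 h. Of 2 endothelial markers tested 1 fell at 0, 2 and 4 h. This was Kdr, a VEGF receptor, with log2 changes of -0.71 (limma, adjusted p = 0.000224), -0.99 (adjusted p = 4.53e-05) and -0.54 (adjusted p = 0.0378), and no red blood cell marker was above the threshold. Of the hypoxia response genes 10 of 10 rose at 0 h, where 15.2% of all probe sets tested did, with a median log2 change of 0.93. At each later time point 8 were tested. Among the 10 were Adm, a vasodilator peptide (1.79; limma, adjusted p = 6.68e-08), and Bnip3, a mitochondrial regulator of cell death and autophagy (1.20; limma, adjusted p = 2.84e-08). The study had already reported Adm, Vegfa and Slc2a1 of this list as induced on these arrays, so the count is no independent check of the treatment.

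Genes of melanosome formation, pigment transport and channels were called in both directions at 0 h, as were probe sets over the whole array. Whether the list differs from the whole array was not tested. Of 29 on the array, 18 were tested at 0 h, of which 4 rose and 3 fell, with a median change of 0.057, where 15.2% of all probe sets rose and 17.2% fell. Gpnmb, a relative of Pmel that is also expressed in macrophages, rose by 1.03 (limma, adjusted p = 0.00161), and Hps1, a subunit of the complex that activates the melanosomal Rab proteins, by 0.54 (limma, adjusted p = 0.0182). Rab38, a small GTPase that routes the tyrosinase family to melanosomes, fell by 0.51 (limma, adjusted p = 0.0105), and Bloc1s5, a subunit of the sorting complex BLOC-1, fell by 0.40 (limma, adjusted p = 0.000212). At 0 h Gpnmb and Hps1 passed the filter through the hypoxic group alone, and Rab38 through the normoxic group alone. Passing in this way favours a change in that direction, so the counts and the median describe only genes that passed. Most proteins of this list serve lysosome-related organelles in many cell types.

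At 2 h, 20 genes of this list were tested, of which 2 rose and 3 fell, where 9.19% of all probe sets rose and 7.38% fell. Gpnmb was still higher by 0.82 (limma, adjusted p = 0.0181), again passing the filter through the hypoxic group alone. Lyst, a regulator of lysosome size, fell by 0.53 (limma, adjusted p = 0.00145), Atp7a, the copper pump that supplies tyrosinase, fell by 0.40 (limma, adjusted p = 0.0264), and Ap3b1, a subunit of a sorting adaptor, fell by 0.28 (limma, adjusted p = 0.0401). At 4 h Hps3 was the only one of 18 called, higher by 0.43 (limma, adjusted p = 0.0286), and at 16 h limma called 0 of 17, with 1 at an unadjusted p under 0.05.

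Of the signals and regulators of pigment cells, 16 were on the array and 9 were tested at 0 h, of which 0 rose and 3 fell. Of all probe sets tested at 0 h, 15.2% rose and 17.2% fell. Pomc, the precursor of melanocyte-stimulating hormone, fell by 0.77 (limma, adjusted p = 2.49e-05), Kitl, the ligand of the receptor Kit, by 0.67 on the log2 scale (limma, adjusted p = 2.51e-05), and Ednrb, an endothelin receptor, by 0.50 on the log2 scale (limma, adjusted p = 0.00281). Otx2, a homeobox factor of RPE and photoreceptors, averaged 11.5 in hypoxic and 11.3 in normoxic retinas, a change of 0.18 (limma, adjusted p = 0.0529). At 2, 4 and 16 h limma called 0 of the 9, with an unadjusted p under 0.05 in 1, 1 and 0. The shares over all probe sets tested were 30.2%, 15.6% and 6.37%.

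Between normoxic pools Dct varied together with Tyrp1, Pmel and Mitf. These pools span all time points, and the permutations over them were not restricted to pools of the same time point. Over the 12 normoxic pools the signal of Dct was correlated with that of Tyrp1 (Pearson r = 0.92, permutation p = 4e-05, adjusted p = 4e-04; Spearman rho = 0.89, permutation p = 0.00031, adjusted p = 0.0031). The correlation with Pmel was 0.87 (permutation p = 0.00096, adjusted p = 0.0048; rho = 0.64, permutation p = 0.0274, adjusted p = 0.0457), and that with Mitf was 0.79 (permutation p = 0.00205, adjusted p = 0.00683; rho = 0.75, permutation p = 0.00703, adjusted p = 0.0351). These were 3 of 7 members, and the p-values were two-sided and adjusted over 10 pairs, among them 3 marker means. Without the 2 pools farthest from the median of Dct (normoxia 2 h replicate 2 and normoxia 0 h replicate 1) r was 0.84 for Tyrp1, 0.66 for Pmel and 0.59 for Mitf.

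The other members did not pass this adjustment in Pearson's r. Mlana had r = 0.68 (permutation p = 0.0276, adjusted p = 0.0553; rho = 0.37, permutation p = 0.237, adjusted p = 0.264) and Tyr r = 0.57 (permutation p = 0.0511, adjusted p = 0.073; rho = 0.55, permutation p = 0.0664, adjusted p = 0.083). Oca2 had r = 0.53 (permutation p = 0.0915, adjusted p = 0.114; rho = 0.66, permutation p = 0.022, adjusted p = 0.0457) and Slc45a2 r = 0.21 (permutation p = 0.515; rho = 0.20, permutation p = 0.545). Without the same pools r was 0.47 for Mlana, 0.42 for Tyr, 0.57 for Oca2 and 0.38 for Slc45a2.

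The mean of the RPE markers was correlated with Dct over the normoxic pools (r = 0.70, permutation p = 0.0061, adjusted p = 0.0152; rho = 0.63, permutation p = 0.0326, adjusted p = 0.0466), with r = 0.54 without the same pools. For the lens mean r was 0.43 (permutation p = 0.143, adjusted p = 0.158; rho = 0.65, permutation p = 0.0258, adjusted p = 0.0457) and for the fibroblast mean 0.61 (permutation p = 0.0341, adjusted p = 0.0568; rho = 0.68, permutation p = 0.0181, adjusted p = 0.0457).

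**Figure D3:**
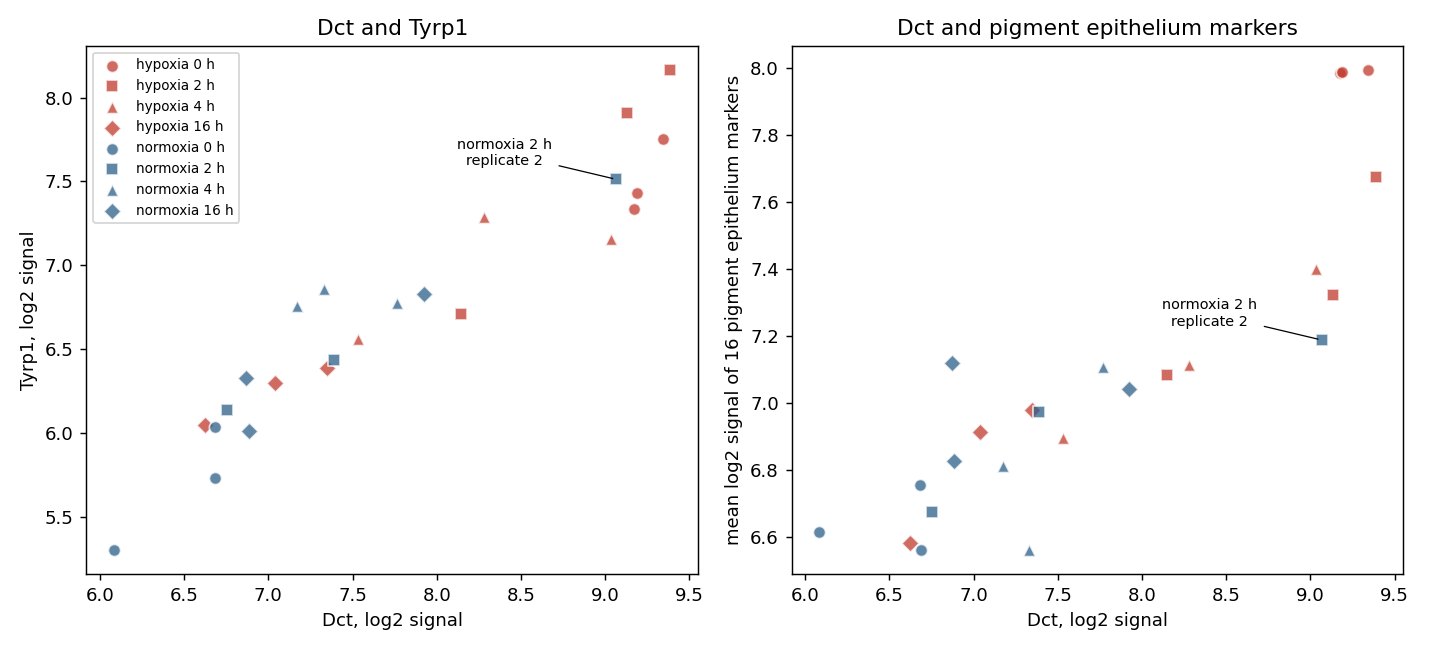
Log2 signal of Tyrp1 (left) and mean log2 signal of 16 RPE markers (right) against the log2 signal of Dct in each of the 24 pools, with hypoxic pools in red, normoxic pools in blue and the time point as symbol. In the left plot all pools lie along 1 band; in the right plot the hypoxic pools at 0 h, at 7.99, lie above normoxia 2 h replicate 2, at 7.19, although their Dct signals of 9.17 to 9.34 are close to its 9.07.

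When the mean of each group was subtracted, so that neither treatment nor time entered, the deviations of Dct in the 24 pools still followed those of Tyrp1 (r = 0.88, permutation p = 2e-04, adjusted p = 0.002; rho = 0.88, permutation p = 0.00033, adjusted p = 0.0033). In this setting 5 of the 7 members passed, with r = 0.71 for Mlana, 0.69 for Pmel, 0.58 for Tyr and 0.43 for Mitf (permutation p = 0.0214, 0.0243, 0.0194 and 0.0164, adjusted p = 0.0405 each). Oca2 had r = 0.17 (permutation p = 0.386) and Slc45a2 r = 0.43 (permutation p = 0.119). The deviations of the RPE marker mean had r = 0.76 with those of Dct (permutation p = 0.00137, adjusted p = 0.00685), and those of the lens mean had r = -0.033 (permutation p = 0.842). Without the 2 pools with the largest deviations of Dct (normoxia 2 h replicates 1 and 2) r was 0.83 for Tyrp1 and 0.72 for the RPE mean. It was 0.63 for Mlana, 0.55 for Pmel, 0.41 for Tyr and 0.34 for Mitf. By Spearman's rho Tyr did not pass (rho = 0.50, permutation p = 0.0368, adjusted p = 0.0613), and its signal lay under the threshold on every array.

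The largest deviations of Dct were 1.33 in normoxia 2 h replicate 2 and -0.98 in normoxia 2 h replicate 1. In normoxia 2 h replicate 2, Tyrp1 deviated by 0.82, Pmel by 1.08 and Mlana by 0.70. In hypoxia 2 h replicate 3, Dct deviated by -0.74, Tyrp1 by -0.89, Pmel by -1.12 and Mlana by -0.73, while Slc45a2 deviated by 0.0011. For Dct the SD was smallest in the hypoxic pools at 0 h, at 0.093, and largest in the normoxic pools at 2 h, at 1.19. For Mitf the hypoxic pools at 0 h had the largest SD, 0.38.

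**Figure D4:**
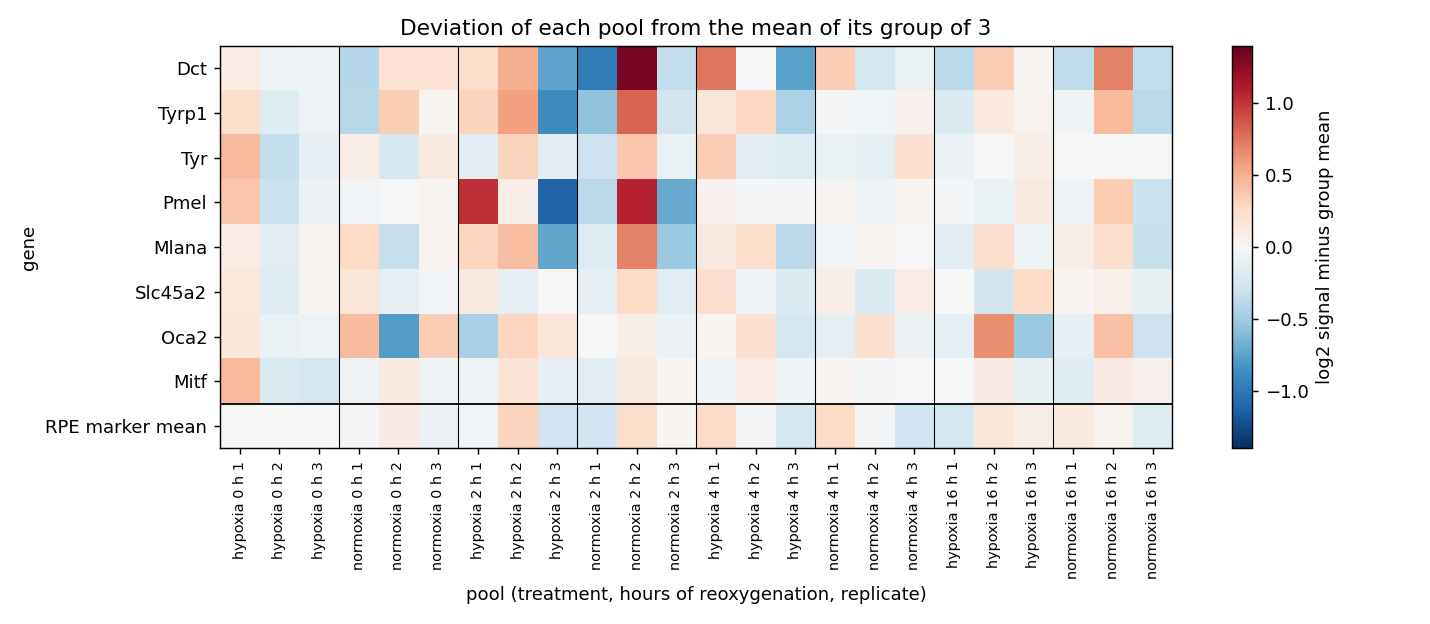
Deviation of each pool from the mean of its group of 3 pools (log2 signal, red above and blue below the group mean) for the 8 pigment genes and, under the line, the mean of the RPE markers; columns are pools, with hypoxia left of normoxia at each time point. Dct, Tyrp1, Pmel and Mlana all lie above their group mean in normoxia 2 h replicate 2 (Dct 1.33) and below it in hypoxia 2 h replicate 3 (Dct -0.74).

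Among 17536 probe sets of other genes that reached the threshold, the deviations most like those of Dct over the 24 pools were those of Ap1g1 (r = 0.80), Rab27a (0.80), Neurl1a (0.80), Rdh5 (0.79) and Rgr (0.77), of which Rab27a is on the melanosome list and Rdh5 and Rgr are on the RPE list. Rab27a reached the threshold only at 2 h, with means of 6.82 in hypoxic and 6.73 in normoxic retinas. By log2 signal, with treatment and time left in, the most similar were Mal (r = 0.91), Rgr (0.90), Ttr (0.90), Htra1 (0.89) and Rdh5 (0.88). The arrays of a group share their treatment and time, so these values are descriptions.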

How the data were processed

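RNA of 24 retina pools was hybridised to Affymetrix mouse arrays. The authors deposited log2 values made with RMA (version not given in the sources used here). The study's own gene lists used GCRMA values, which were not used here. Of 45101 probe sets, 64 controls were left out. Probe sets were named by the platform annotation, in which 34945 have 1 gene, 932 several and 9160 none, and members were matched to RefSeq by gene ID (8 of 8).

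A linear model with 8 groups was fitted to all arrays with limma 3.58.1 in R 4.3.3 (16 residual degrees of freedom), and checked on simulated data. Contrasts were hypoxia minus normoxia at each time point, differences between these effects, and an F test over the normoxic groups. The threshold of 6.69 is the lowest density between peaks at 3.81 and 7.90. Correlations used 100000 permutations. The limma p-values rest on a spread pooled over all groups, so a gene has 1 SE at every time point although its group SDs differ, and the 3 pools per group limit the precision.

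Named were all probe sets of the members, of each list up to 4 called genes with the largest change (where none was called, at most 2 by highest mean), and the 5 genes most like Dct by each measure. Otx2, outside this rule, was chosen after its values were seen. Members and lists (11 lists) were chosen with earlier results of these data known. Alternatives were the signal filter, normalization, spread, array weights, a replicate block, the 6 arrays of a time point, the methods' t-test, other probe set choices and leaving out arrays.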

Additional observations from a re-analysis of the deposited data

Results flagged for a closer look

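The effects of hypoxia on Dct and Tyrp1 differed between time points by a test of the difference itself (limma contrast, adjusted over all probe sets tested). For Dct the change at 0 h was larger than at 4 h by 1.89 on the log2 scale (adjusted p = 0.0418) and larger than at 16 h by 2.97 (adjusted p = 0.00202). For the 3 probe sets of Tyrp1 the difference from 4 h was 1.62 (adjusted p = 0.0186), 1.56 (adjusted p = 0.0188) and 1.28 (adjusted p = 0.0214). Their difference from 16 h was 1.97 (adjusted p = 0.00454), 2.16 (adjusted p = 0.00172) and 1.59 (adjusted p = 0.00484). The Dct difference from 4 h lost its call with no signal filter (adjusted p = 0.0797), with a trended spread (adjusted p = 0.0799), without both arrays farthest from the others (adjusted p = 0.0517) and without any 1 of the arrays at 0 h (adjusted p up to 0.0921) or several at 4 h (up to 0.126), over a range of 0.0112 to 0.126 across all alternatives. The brightest probe set of Tyrp1 lost that call without hypoxia 0 h replicate 1 (adjusted p = 0.0501) or hypoxia 4 h replicate 3 (adjusted p = 0.0585).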

How the results depend on the processing

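Of 2779 recomputed values of 87 results, 2663 kept their direction and their side of the threshold or stayed within the allowed spread. Of the rest, 41 lost the threshold or were no longer tested, 14 gained the threshold, 11 reversed and 50 moved. The cause was not tested. The count of 3 genes higher at 0 h was 1 with a filter stricter by 1, which tested only Dct, and 2 to 3 without single arrays. The count of 1 lower (Mitf) was 0 with the stricter filter, the 6 arrays alone, the methods' t-test, the mean of all probe sets and without both arrays farthest from the others, and 0 to 1 without single arrays. At 2 h the count of 0 higher was 1 with no filter (Mlana), 2 with the replicate block (Dct, adjusted p = 0.0282, in a range of 0.0282 to 0.432 over the alternatives other than leaving out single arrays; Tyrp1, adjusted p = 0.0397, in a range of 0.0397 to 0.431) and 0 to 4 without single arrays. The count of 1 lower at 2 h was 0 with the stricter filter, the t-test and the mean of all probe sets, and 0 to 1 without single arrays. At 0 and 2 h Mitf was not tested with the stricter filter or with the mean of all probe sets. Its count of 0 in those settings is therefore no failed test. The number of genes with a larger effect at 0 h than at 2 h (0) was 1 with the replicate block and 0 to 1 without single arrays. The number with a larger effect at 0 h than at 4 h (2) was 1 with no filter, the stricter filter, the trended spread or without both far arrays, and 0 to 2 without single arrays. Against 16 h (2) it was 1 with the stricter filter. A more negative change of Mitf at 0 h than at 4 h (by -0.65) and at 16 h (by -0.67) was called only without hypoxia 0 h replicate 1, so the counts of members with a lower signed value at 0 h were 0 to 1. Members correlated with Dct numbered 3 over normoxic pools and 5 by deviations. Mitf at 16 h reversed with quantile normalization (-0.0081) and array weights (-0.00049), and ran from -0.072 to 0.069 without single arrays. Without single arrays, Mitf at 4 h ran from -0.059 to 0.022, Dct at 16 h from -0.40 to 0.13, Pmel from -0.27 to 0.80 and Mitf from -0.15 to 0.19 for the effect at 0 h minus that at 2 h. The labels do not say whether pools with equal replicate numbers share anything. Same-numbered pools correlated at -0.227 to 0.237 in their deviations, above 0.1 in 2 of 12 pairs. Of the arrays, 8 of 24 correlated best with their own number. These values show no clear pairing but cannot exclude it. The F test was not run with the block. Signals under 6.69, as for Tyr, Slc45a2, Oca2 and Mlana, limit what can be said of these genes.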
